A study of Mus musculus with 30 samples.

Results

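The genes described here are 8 liver genes of amino acid breakdown, namely the aminotransferase genes Got1, Gpt and Gpt2, the dehydratase gene Sds and its neighbour Sdsl, the dioxygenase genes Tdo2 and Hpd, and the glutaminase gene Gls2. They were taken by symbol from a table of 29117 genes, at the row of highest mean level, and all 8 were among the 13589 genes tested. The table gave FPKM, a count of fragments corrected for how long the transcript is and how many fragments mapped, for 30 poly(A) RNA libraries of the left liver lobe. The mice were 10-week-old C57BL/6J, an inbred laboratory strain, and no genetic change is given in the labels. All were fasted for 12 to 16 h and then given an intraperitoneal injection of human insulin at 0.7 U/kg or of phosphate-buffered saline (PBS), the vehicle. Each treatment was sampled at 5 points over 4 h with 3 biological replicates per point, so each group of 3 is named by treatment and point number. The labels do not give the minutes of the points, and neither their order in time nor a baseline at point 1 is assumed.

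Aminotransferases move the amino group of an amino acid onto a keto acid, which leaves a carbon skeleton that the liver can burn or turn into glucose. The liver takes up amino acids released by muscle in fasting, and enzymes of this kind are known to be induced there by glucagon and glucocorticoids. Insulin is known to oppose gluconeogenesis from these substrates, and each comparison asked whether insulin and PBS livers of the same point held different levels of these transcripts.

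Got1 was the member that rose. Its transcript was 2.63-fold higher in insulin than in PBS at point 3, 1.95-fold at point 4 and 2.34-fold at point 5. Gpt and Gls2 fell, standing 1.82-fold and 1.74-fold lower in insulin at point 5. Sds, Sdsl, Gpt2, Tdo2 and Hpd were called at no point. A gene rose, fell or changed here when limma's test on log2(FPKM + 1), with all 30 libraries sharing an estimate of the spread, gave a Benjamini-Hochberg adjusted p below 0.05 over all 13589 genes. Differences on this scale are given with their standard error (SE) and with 3 libraries per group. Folds are ratios of mean FPKM. At points 1 and 2 limma called 0 of the 8, beside 0.00736% and 1.35% of all genes. There 4 and 3 members had an unadjusted p below 0.05. The share of all genes at that unadjusted level was not taken, so these counts are not read as an effect.

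Several facts of the series bear on all of these values. Insulin and PBS were sequenced on separate lanes, and the effects of lane and injection cannot be told apart. Across all genes tested the median difference was below 0 at every point (-0.06, -0.12, -0.14, -0.14 and -0.17 at points 1 to 5), so part of a small negative difference is shared with most genes. Depth, estimated roughly from the steps between low values, was 19.9 to 40.5 M reads per library. The summed level of 5 hepatocyte markers was 32800 to 45600 FPKM in insulin and 35700 to 47000 in PBS, and the 6 lymphocyte and neutrophil markers summed to 1.85 to 15.7 over all libraries, with Cd79a and Nkg7 at a median of 0. Markers of several cell types were called lower in insulin. The 6 endothelial markers summed to 37.6 to 55.8 FPKM in insulin and 48.2 to 74.3 in PBS. Of these, 1 and 3 were lower at points 4 and 5 and 5 in the average over the points, beside 10.4%, 16.1% and 37.6% of all genes. At point 4, 2 of 6 Kupffer cell and macrophage markers were lower (sums of 48.3 to 104 and 63.2 to 185 FPKM over all points). PBS replicate 1 of point 4 held the highest sums of the Kupffer cell, endothelial, and lymphocyte and neutrophil lists (185, 74.3 and 15.7 FPKM). The other Kupffer cell sums in PBS at point 4 were 86.9 and 109 FPKM, against 66.8 to 83.9 in insulin. In the average, 2 of the 5 hepatocyte markers were lower and 1 higher. Of 11 periportal hepatocyte markers, Sds and Gls2 among them, 6 were lower in the average and 4 at point 5. Of 10 pericentral ones, 6 were lower in the average and 1 at point 5. The part of these cells in the results was not tested. In bulk tissue, fewer cells of a type and less RNA per cell cannot be told apart.

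The 8 genes lie on 6 chromosomes of GRCm38, and all are annotated as protein-coding in GENCODE M21. Got1 is at chromosome 19, 43499752 to 43524605, on the minus strand. Gpt is at chromosome 15, 76695716 to 76699686, and Gpt2 at chromosome 8, 85492576 to 85527560, both on the plus strand. Sds (chromosome 5, 120476526 to 120483932, plus strand) and Sdsl (chromosome 5, 120458186 to 120472810, minus strand) are neighbours 3715 bases apart that are read from opposite strands. Hpd is also on chromosome 5, at 123171807 to 123182727 on the minus strand. Tdo2 is at chromosome 3, 81957090 to 81976202, on the minus strand, and Gls2 at chromosome 10, 128194457 to 128210004, on the plus strand. Exons of Sds overlap those of the antisense gene Gm15690 and of Plbd2, and an exon of Gls2 overlaps Spryd4, all on the other strand. The strand setting of the quantification is not given in the sources used here, so reads shared in those stretches are a limit for Sds and Gls2.

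The promoters of Got1 and Gpt2 are shown because Got1 rose at 3 points and Gpt2 was called at none, and the letters let their start regions be compared. The sequences are the 250 bases before the RefSeq start on GRCm38.p6, which the promoter set used here held for 4 of the 8 genes (Got1, Gpt2, Tdo2 and Hpd). Capitals mark matches, on either strand, to 8 motifs: the CCAAT box (CCAAT), the cAMP response element (TGACGTCA) and its core TGACG, a C/EBP-ATF composite element (TTGCATCA), a forkhead element (GTAAACA), an insulin response sequence (CAAAACA), a glucocorticoid receptor half-site (AGAACA) and the TATA box (TATAAA). The core TGACG lies within the full cAMP response element, and the composite element was added after the Got1 sequence had been read.
Got1 promoter, chr19:43524606-43524855, minus strand: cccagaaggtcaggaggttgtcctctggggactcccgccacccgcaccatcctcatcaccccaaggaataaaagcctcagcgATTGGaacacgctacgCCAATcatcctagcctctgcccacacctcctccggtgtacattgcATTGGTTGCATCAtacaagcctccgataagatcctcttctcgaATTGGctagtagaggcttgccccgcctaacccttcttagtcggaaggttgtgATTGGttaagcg
Gpt2 promoter, chr8:85492326-85492575, plus strand: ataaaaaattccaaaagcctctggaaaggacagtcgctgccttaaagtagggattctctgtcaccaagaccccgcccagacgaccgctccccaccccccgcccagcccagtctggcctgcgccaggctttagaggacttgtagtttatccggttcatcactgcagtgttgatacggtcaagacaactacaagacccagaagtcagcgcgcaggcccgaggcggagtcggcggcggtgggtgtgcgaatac
The Got1 window held 5 CCAAT boxes, 4 of them written as ATTGG on the strand shown, with first bases at -168, -152, -107, -64 and -12 from the start. Of 32851 promoters, 33.8% held at least 1 CCAAT box and 0.213% held 5 or more. A match to the composite element directly follows the CCAAT box at -107, and 0.791% of promoters held that element. The Gpt2 window held none of the 8 motifs. Among the other promoters, that of Hpd held none and that of Tdo2 held 1 CCAAT box at -78 and 1 TATA box at -229. The Tdo2 window (chromosome 3, 81975729 to 81975978) lies within the GENCODE span of the gene, which ends at 81976202. The RefSeq start used for Tdo2 and its outermost GENCODE start therefore differ. A match is a run of letters and not a measured binding site.

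Got1 encodes the cytosolic aspartate aminotransferase, which interconverts aspartate and glutamate and works in the malate-aspartate shuttle. At point 1 the insulin libraries stood at 173, 188 and 131 FPKM and the PBS libraries at 255, 227 and 228. Insulin therefore lay wholly below PBS there, as it did for 6.44% of all genes, but the difference of -0.54 ± 0.25 did not pass the test (adjusted p = 0.62 by limma). Point 2 gave 131, 131 and 166 FPKM in insulin and 134, 103 and 157 in PBS, which overlapped (0.13 ± 0.25, adjusted p = 0.823 by limma).

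At point 3 Got1 reached 257, 338 and 192 FPKM in insulin against 136, 62.1 and 101 in PBS. All 3 insulin libraries lay above all 3 PBS libraries, as for 7.65% of all genes, and the difference was 1.42 ± 0.25 (adjusted p = 0.00129 by limma). Got1 was the sole member called at this point, where 2.19% of all genes were called higher and 7.26% lower (9.45% in all).

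At point 4 the Got1 insulin libraries were close together at 290.3, 301 and 282 FPKM, and PBS stood at 123, 146 and 178. The difference was 0.98 ± 0.25 (adjusted p = 0.0157 by limma), and the groups did not overlap, as for 8.01% of all genes with insulin above. Got1 was again the sole member called, beside 2.82% of all genes higher and 10.4% lower (13.2% in all). This call ended without insulin replicate 1 or 2 of the point (adjusted p = 0.0505 and 0.0594), without PBS replicate 1 (adjusted p = 0.0648) and without all insulin libraries of replicate 1 (adjusted p = 0.0788), while the difference stayed between 0.85 and 1.11 when single libraries were left out.

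The highest Got1 values in the series were those of insulin at point 5, with 404, 377 and 503 FPKM. PBS at that point gave 198, 236 and 115, and again the groups did not overlap, as for 6.42% of all genes with insulin above. The difference was 1.27 ± 0.25 (adjusted p = 0.00192 by limma). With each library of the point left out in turn, Got1 kept its call at points 3 and 5, with differences of 1.12 to 1.68 and 0.97 to 1.48.

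The Got1 difference depended on the point (F test in limma, adjusted p = 0.0068), and it was the sole member for which it did, beside 1.77% of all genes. This call ended without the insulin libraries of replicate 1 (adjusted p = 0.0817). Got1 varied among points in both treatments, that is, within PBS (adjusted p = 0.0229), where its mean ran from 99.6 FPKM at point 3 to 236 at point 1, and within insulin (adjusted p = 0.000429), where it ran from 143 at point 2 to 428 at point 5. The PBS call was lost under 7 of 38 alternatives: no filter (adjusted p = 0.0732), the insulin libraries of replicate 1 left out (adjusted p = 0.0748), PBS replicate 1, 2 or 3 of point 1 left out (adjusted p = 0.0861, 0.0605 and 0.0599) and PBS replicate 2 or 3 of point 3 left out (adjusted p = 0.0833 and 0.0529). The insulin call was lost under none of the 38.

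**Figure D1:**
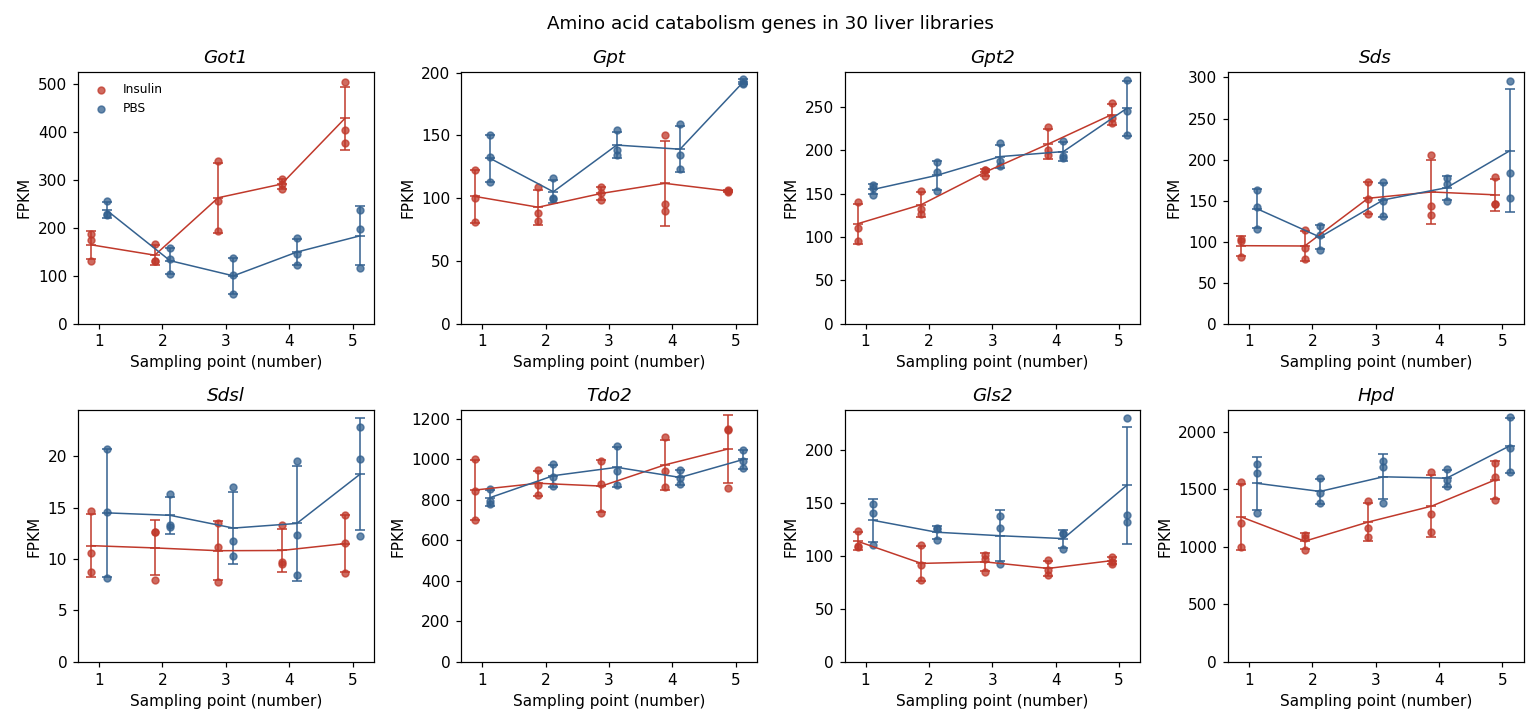
FPKM of the 8 genes in all 30 libraries by sampling point number (x axis), with insulin in red and PBS in blue. Points are libraries, the dash is the group mean, bars are 1 SD (n = 3), and lines join group means in label order. Got1 insulin libraries stand above PBS at points 3, 4 and 5, while Gpt at point 5 stands at 105 to 106 FPKM in insulin and 191 to 195 in PBS.

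Gpt and Gpt2 encode the alanine aminotransferases, which turn alanine into pyruvate in the cytosol and in mitochondria respectively. Gpt was nearly level across the insulin groups, with means of 92.8 FPKM at point 2 to 112 at point 4 and no variation among points that passed the test (F test in limma, adjusted p = 0.835). In PBS it varied among points (adjusted p = 0.0213), from a mean of 105 FPKM at point 2 to 193 at point 5. That call was lost under 6 of 38 alternatives, namely no filter (adjusted p = 0.0504), PBS replicate 1 or 3 of point 2 left out (adjusted p = 0.0732 and 0.0665) and PBS replicate 1, 2 or 3 of point 5 left out (adjusted p = 0.0619, 0.0667 and 0.0612). The treatments were not shown to differ in how Gpt varied, since the dependence of its difference on the point did not pass (adjusted p = 0.5 by limma). At point 5 the insulin libraries gave 106, 106 and 105 FPKM and the PBS libraries 192, 195 and 191, the tightest pair of groups for Gpt.

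Insulin lay wholly below PBS for Gpt at point 5, as for 29.0% of all genes, and the difference was -0.86 ± 0.16 (adjusted p = 0.00122 by limma). It stayed between -0.87 and -0.85 when any library of the point was left out. Gpt and Gls2 were the 2 members called lower at point 5 and Got1 the 1 called higher, against 16.1% of all genes called lower and 2.96% higher (19.1% in all). At point 3 the Gpt libraries stood at 104, 98.3 and 109 FPKM in insulin and 134, 139 and 154 in PBS, apart from each other as for 27.8% of all genes, but the difference of -0.45 ± 0.16 did not pass (adjusted p = 0.0745 by limma). Differences at points 1, 2 and 4 were -0.39, -0.19 and -0.34, each with overlapping groups.

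Gpt2, unlike Gpt, passed the test of variation within insulin, though the 2 genes were not compared with each other. Its insulin means were 116, 138, 175, 207 and 241 FPKM at points 1 to 5, and this variation passed the test (F test in limma, adjusted p = 2.67e-06), as it did for 13.3% of all genes and for 3 members (Got1, Gpt2 and Sds). Its PBS means were 155, 171, 193, 199 and 249 FPKM, which also varied among points (adjusted p = 0.00936, and 0.0523 without PBS replicate 2 of point 5). Variation within PBS passed for Got1, Gpt and Gpt2 and for 3.27% of all genes. Both treatments thus had their lowest Gpt2 mean at point 1 and their highest at point 5.

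Between treatments Gpt2 differed by -0.44 ± 0.12 at point 1, where insulin gave 110, 141 and 95.6 FPKM and PBS 149, 160 and 157. The groups did not overlap, as for 6.44% of all genes with insulin below. The adjusted p was 0.508 by limma, in a comparison that called 1 of the 13589 genes (0 higher, 0.00736% lower). Gpt2 was at -0.31 ± 0.12 at point 2 (adjusted p = 0.183). At points 3, 4 and 5 its differences were -0.14, 0.06 and -0.04, each with an SE of 0.12, so the 95% intervals there spanned -0.39 to 0.31. Insulin lay wholly below PBS at point 3, as for 27.8% of all genes, and the groups overlapped at points 2, 4 and 5.

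**Figure D2:**
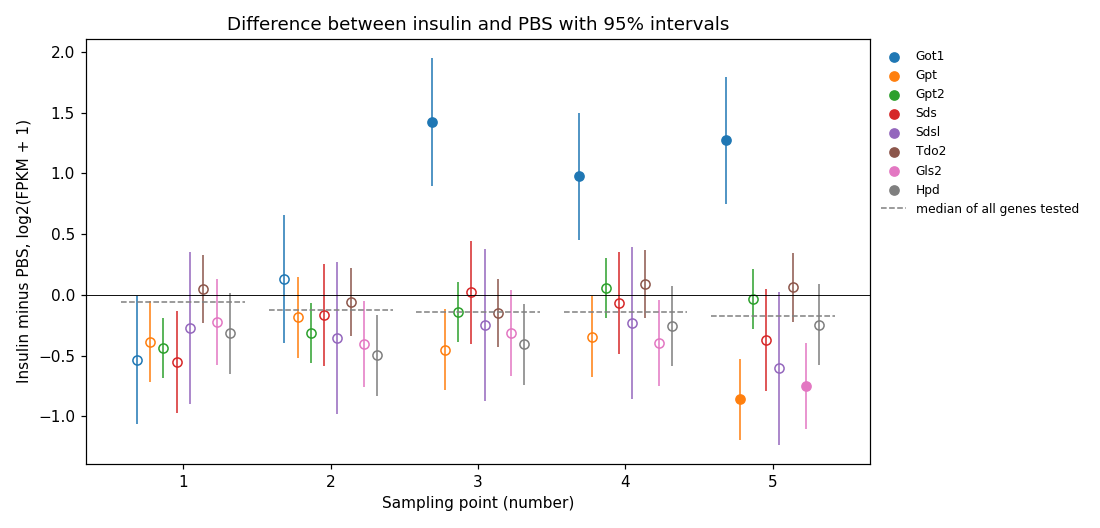
Difference between insulin and PBS on the log2(FPKM + 1) scale for the 8 genes at each point, with 95% intervals. Filled symbols passed the test and dashed lines are the median of all genes tested. Got1 stands at 1.42, 0.98 and 1.27 at points 3 to 5, and the other filled symbols are Gpt (-0.86) and Gls2 (-0.75) at point 5.

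Sds encodes serine dehydratase, which turns serine into pyruvate and ammonia, and Sdsl a related enzyme. Sds stood at 81.1, 101 and 103 FPKM in insulin and 115, 163 and 143 in PBS at point 1. Those groups did not overlap, as for 6.44% of all genes with insulin below, and the difference of -0.55 ± 0.20 did not pass (adjusted p = 0.561 by limma). Its differences at points 2, 3 and 4 were -0.16, 0.02 and -0.07 with overlapping groups.

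Within insulin Sds changed among points (F test in limma, adjusted p = 0.00716, and 0.123 without the insulin libraries of replicate 1): the means were 95.02 and 94.6 FPKM at points 1 and 2 and 153, 161 and 157 at points 3 to 5. Within PBS the means ran from 106 FPKM at point 2 to 211 at point 5 (adjusted p = 0.0568), a variation that passed under 7 of 38 alternatives, both scalings among them (adjusted p = 0.0244 and 0.0261). At point 5 the PBS libraries stood at 184, 296 and 153 FPKM, so replicate 2 was far above the others, and insulin stood at 146, 146 and 179. The difference of -0.37 ± 0.20 did not pass (adjusted p = 0.196 by limma) and was -0.10 without that library.

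Sdsl was the lowest of the 8 genes, at 7.76 to 14.7 FPKM in insulin and 8.19 to 22.8 in PBS over the 15 libraries of each. Its replicates also spread the most, with a residual SD of 0.40 on the log2 scale that was above that of 89.8% of the genes tested. The differences ran from -0.60 at point 5 to -0.23 at point 4, each with an SE of 0.30. The insulin libraries lay wholly below PBS at point 2 alone (12.6, 8.00 and 12.6 against 13.2, 13.3 and 16.3 FPKM), as for 18.6% of all genes.

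Gls2 encodes the liver form of glutaminase, which releases ammonia from glutamine for the urea cycle. Its libraries at point 5 stood at 92.8, 99.0 and 94.7 FPKM in insulin and 138, 230 and 132 in PBS. The groups did not overlap, as for 29.0% of all genes with insulin below, although PBS replicate 2 stood far above its neighbours. The difference was -0.75 ± 0.17 (adjusted p = 0.00476 by limma), and without that library it was -0.49 (adjusted p = 0.0354). The call ended when the 6 libraries of the point were fitted alone (adjusted p = 0.0744).

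At points 2 and 4 the Gls2 insulin libraries also lay wholly below PBS, as for 18.6% and 24.3% of all genes, with 91.8, 77.0 and 110 against 115, 126 and 126 FPKM and with 86.4, 81.8 and 96.3 against 120, 107 and 122. The differences of -0.41 and -0.40 (SE 0.17 each) did not pass (adjusted p = 0.219 and 0.121 by limma). Points 1 and 3 gave -0.22 and -0.31 with overlapping groups. PBS replicate 2 of point 5 also held the highest value of the series for Sds (296 FPKM), Sdsl (22.8), Hpd (2128), Gpt2 (281) and Gpt (195). Without it the Gpt difference at point 5 was -0.85 (adjusted p = 0.00466). It had the lowest sum of FPKM over all genes (593637) and the highest sum of 11 periportal hepatocyte markers (8350 FPKM, against 4910 to 6890 in insulin). That list holds Sds and Gls2, and its part in these differences was not tested.

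Tdo2 and Hpd were the most abundant of the 8. Tdo2 encodes tryptophan 2,3-dioxygenase, which opens the kynurenine pathway. Its group means were 847, 881, 867, 971 and 1050 FPKM in insulin and 810, 918, 959, 910 and 998 in PBS. All 5 pairs of groups overlapped, and the differences were 0.05, -0.06, -0.15, 0.09 and 0.06 with an SE of 0.14 each. Their 95% intervals lay within -0.43 and 0.37.

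Hpd encodes 4-hydroxyphenylpyruvate dioxygenase of tyrosine breakdown. At point 2 it gave 1098, 969 and 1079 FPKM in insulin and 1376, 1597 and 1468 in PBS, without overlap, as for 18.6% of all genes with insulin below. That difference, -0.50 ± 0.16, was the widest for Hpd and did not pass (adjusted p = 0.119 by limma, at a point where 0.618% of all genes were called higher, 0.736% lower and 1.35% in all). The other differences were -0.32, -0.41, -0.26 and -0.25 at points 1, 3, 4 and 5, with overlapping groups.

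Averaged over the 5 points, Got1 was higher by 0.65 ± 0.11 (adjusted p = 8.97e-05 by limma) and 6 members were lower. The 6 were Gpt by -0.45 ± 0.07 (adjusted p = 4.36e-05), Gls2 by -0.42 ± 0.08 (adjusted p = 0.000144), Hpd by -0.34 ± 0.07 (adjusted p = 0.000519), Sdsl by -0.34 ± 0.14 (adjusted p = 0.0423), Sds by -0.23 ± 0.09 (adjusted p = 0.0446) and Gpt2 by -0.17 ± 0.05 (adjusted p = 0.0107). Tdo2 was at -0.00 ± 0.06. Of all genes, 7.89% were higher and 37.6% lower in this average (45.5% in all), and the members' median of -0.29 stood beside -0.13 for all genes. The calls of Gpt, Gls2 and Hpd held under median-ratio scaling and quantile normalization, which bring the median of all genes close to 0, and those of Gpt2, Sds and Sdsl did not (Gpt2 then at -0.01 and -0.03, Sds at -0.07 under each, and Sdsl at -0.20 and -0.22). The Sds call was lost under 23 of 38 alternatives, the Sdsl call under 21 and the Gpt2 call under 3. For Sds and Sdsl these included no filter (adjusted p = 0.0968 and 0.101 by limma) and lane as a random effect (adjusted p = 0.0608 and 0.0561). Many of the others left out a single library. Per point, 0, 0, 1, 1 and 1 members were separated above PBS at points 1 to 5, where the shares of all genes were 2.99%, 4.86%, 7.65%, 8.01% and 6.42%, and 3, 3, 2, 1 and 2 members were separated below, beside 6.44%, 18.6%, 27.8%, 24.3% and 29.0% of all genes. The share of members below was over that of all genes at points 1 and 2 and under it at points 3 to 5. At points 3 to 5 a single further member would have reversed this order, so no result about the members is read from it.

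Other genes of the same pathways were mostly called lower where they were called, in the values as deposited. Of 93 tested genes in 11 lists of amino acid enzymes, carriers and transporters, the members left out, 17 were lower and 3 higher in insulin at point 3. At point 4 the numbers were 18 lower and 5 higher, and point 5 had 35 lower and 6 higher. The shares that fell were 18.3%, 19.4% and 37.6% at points 3, 4 and 5, beside 7.26%, 10.4% and 16.1% of all genes. At point 5 the median difference of the 93 was -0.29 beside -0.17. This balance moved with the scaling, which shifted all genes. Under median-ratio scaling point 3 had 9 lower and 7 higher, point 4 had 12 lower and 8 higher, and point 5 had 22 lower and 10 higher. At point 5, 8.96% of all genes then rose and 7.82% fell, and the shares at points 3 and 4 are not given here. The number fallen at point 5 also moved with single libraries, from 20 without insulin replicate 1 to 35 without PBS replicate 1. It was 23 without PBS replicate 2 or 3. At point 4 the number fallen was 6 without insulin replicate 1 or 2 or PBS replicate 3, and 31 without insulin replicate 3. At point 3 it was 6 without insulin replicate 2 or PBS replicate 3, and 8 to 12 without any of the other libraries. The shares of all genes with the same libraries left out are not set beside these counts. No result particular to the 93 genes is therefore read from these moves.

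Among 10 other aminotransferase genes, point 3 had 1 higher and 2 lower in insulin, point 4 had 2 higher and 4 lower, and point 5 had 2 higher and 3 lower. Beside this and each later list count, 7.26%, 10.4% and 16.1% of all genes were lower at points 3, 4 and 5. The shares higher were 2.19%, 2.82% and 2.96%. List counts under another scaling are given without such shares. Agxt, the alanine-glyoxylate aminotransferase, stood at 400.4, 308 and 248 FPKM in insulin and 128, 109 and 140 in PBS at point 3. All insulin libraries lay above PBS, by 1.32 ± 0.24 (adjusted p = 0.00133 by limma), and at point 5 the values were 393, 399 and 408 against 111, 225 and 122 (1.46 ± 0.24, adjusted p = 0.000372). At point 1 the Agxt difference was -0.41 ± 0.24 (adjusted p = 0.661), beside -0.54 ± 0.25 for Got1, and neither passed.

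Tat, the tyrosine aminotransferase that starts tyrosine breakdown upstream of Hpd, gave 1332, 985 and 1605 FPKM in insulin and 484, 528 and 596 in PBS at point 4. The groups were well apart (1.26 ± 0.22, adjusted p = 0.000802 by limma), as they were at point 5, with 990, 1165 and 1609 against 687, 614 and 490 FPKM (1.06 ± 0.22, adjusted p = 0.00219). Hpd passed the test at neither point. The difference depended on the point for Agxt (F test in limma, adjusted p = 0.00259) and Tat (adjusted p = 0.00287). At point 1 Tat gave 394, 655 and 364 FPKM in insulin and 773, 699 and 752 in PBS. Insulin lay wholly below PBS there, as for 6.44% of all genes, and Tat was not called.

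Got2, the mitochondrial partner of Got1, moved the other way. It stood at 93.0, 100.4 and 132 FPKM in insulin and 140, 131 and 168 in PBS at point 4 (-0.44 ± 0.13, adjusted p = 0.0257 by limma) and at 104, 120 and 121 against 150, 172 and 156 at point 5 (-0.47 ± 0.13, adjusted p = 0.0132). The groups overlapped slightly at point 4 and lay apart at point 5. Its call was lost under 5 and 4 of 15 alternatives, including the fit that left out insulin replicate 1 of the point (adjusted p = 0.144 and 0.0766) and, at point 5, without PBS replicate 2 (adjusted p = 0.0523).

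Kyat1, a kynurenine aminotransferase, and Bcat2, the mitochondrial branched-chain aminotransferase, were lower in insulin at points 3, 4 and 5. Kyat1 at point 5 gave 17.7, 19.0 and 22.0 FPKM in insulin and 40.2, 48.5 and 47.4 in PBS, a difference of -1.17 ± 0.13 (adjusted p = 2.27e-06 by limma). Bcat2 at point 4 gave 4.96, 5.72 and 5.78 against 12.3, 11.3 and 12.6 FPKM (-1.01 ± 0.21, adjusted p = 0.0034). Neither pair of groups overlapped.

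**Figure D3:**
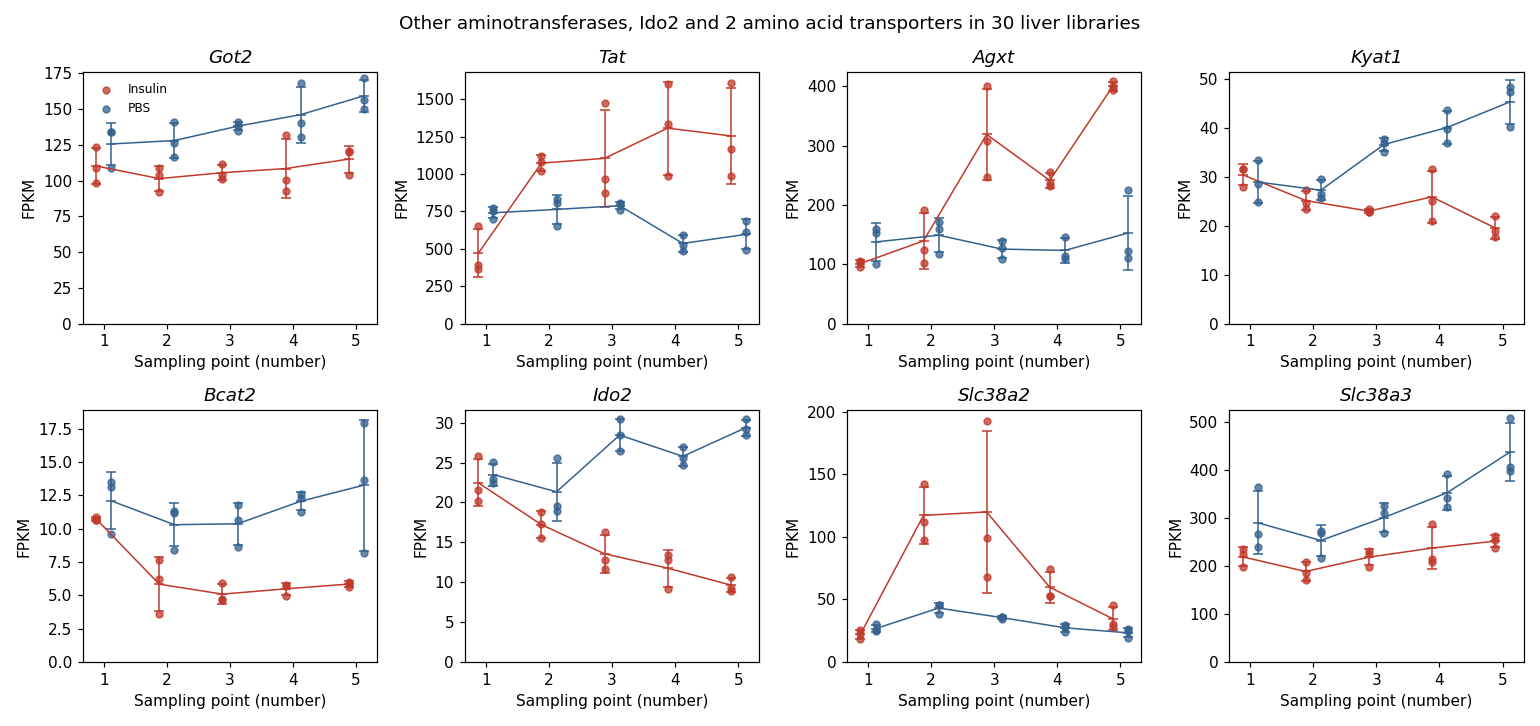
FPKM of 8 related genes in all 30 libraries by sampling point number, with insulin in red and PBS in blue. Points are libraries, dashes are means and bars are 1 SD (n = 3). Agxt and Tat stand above PBS at point 5 (means of 400.1 against 153 FPKM and of 1255 against 597), and Kyat1, Bcat2 and Ido2 stand below.

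In the tryptophan pathway, which Tdo2 opens, 1, 2 and 4 of 7 other genes fell at points 3, 4 and 5 and 1 rose, at point 5. Ido2, an indoleamine dioxygenase that acts on the same substrate as Tdo2, fell at all 3 points, and at point 5 it stood at 9.33, 10.7 and 8.91 FPKM in insulin and 28.5, 29.2 and 30.5 in PBS. The difference there was -1.52 ± 0.14 (adjusted p = 2.39e-07 by limma), against 0.06 ± 0.14 for Tdo2. Ido2 is the scarcer transcript, with a mean of 20.3 FPKM against 921 for Tdo2 over the 30 libraries. Afmid, the kynurenine formamidase, stood at 33.9 ± 3.0 FPKM (SD, n = 3) in insulin and 63.7 ± 4.0 in PBS at point 5 (adjusted p = 0.00197 by limma).

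In phenylalanine and tyrosine breakdown, 3 of 7 genes fell and 1, Tat, rose at point 5, against 3 and 2 under median-ratio scaling. Gstz1, the maleylacetoacetate isomerase downstream of Hpd, stood at 251 ± 13 FPKM (SD, n = 3) in insulin and 339.8 ± 20.7 in PBS (adjusted p = 0.00569 by limma). Pcbd1, which recycles the cofactor of phenylalanine hydroxylase, stood at 119 ± 10 against 172 ± 17 (adjusted p = 0.0043).

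Around Sds, 3 of 9 genes of serine, glycine and threonine breakdown fell at point 5 and 0 rose, against 2 and 1 under either scaling. Shmt2, the mitochondrial serine hydroxymethyltransferase, fell at point 3 from 66.0 ± 4.4 FPKM (SD, n = 3) in PBS to 41.1 ± 1.4 in insulin (adjusted p = 0.00978 by limma) and at point 5 from 69.1 ± 4.5 to 40.03 ± 4.09 (adjusted p = 0.00194). Around Gls2, 4 of 9 genes of glutamine, glutamate and proline metabolism fell at point 3, 2 at point 4 and 4 at point 5. Under median-ratio scaling 1, 1 and 3 fell and 1 rose, at point 4, and under quantile normalization 1, 1 and 4 fell and 1 rose, also at point 4. Prodh and Prodh2, which oxidise proline and hydroxyproline, fell at point 5 by -0.86 ± 0.17 (adjusted p = 0.00185) and -0.79 ± 0.15 (adjusted p = 0.00124).

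All 4 genes of histidine breakdown (Hal, Uroc1, Amdhd1 and Ftcd) fell at point 5, with differences of -0.74 to -0.50, but 1 of them was called under median-ratio scaling and 2 under quantile normalization. Of 20 genes of branched-chain amino acid breakdown, 5, 2 and 6 fell at points 3, 4 and 5 and 0 rose. The 2 at point 4 were near the share of all genes that fell there (10.4%). Under either scaling 3, 2 and 3 fell, and 1 rose at point 4 (and 1 at point 5 under median-ratio scaling). Ivd, the isovaleryl-CoA dehydrogenase, stood at 41.3 ± 3.0 FPKM (SD, n = 3) in insulin and 63.2 ± 1.8 in PBS at point 3 (adjusted p = 0.00405 by limma). Among 10 genes of methionine and cysteine metabolism, 2, 1 and 4 fell at points 3, 4 and 5, against 0, 1 and 2 under median-ratio scaling, with 1 risen at point 3, and 0, 1 and 3 under quantile normalization. Of 5 lysine genes 1 rose and 2 fell at point 5, against 1 and 1 under either scaling. Of 8 carriers and enzymes of the malate-aspartate shuttle and pyruvate import, Got2 and Slc25a11 fell at points 4 and 5, and 1 of the 8 fell at each of these points under either scaling. The calls of Slc25a11 were lost under 8 and 7 of 15 alternatives.

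**Figure D4:**
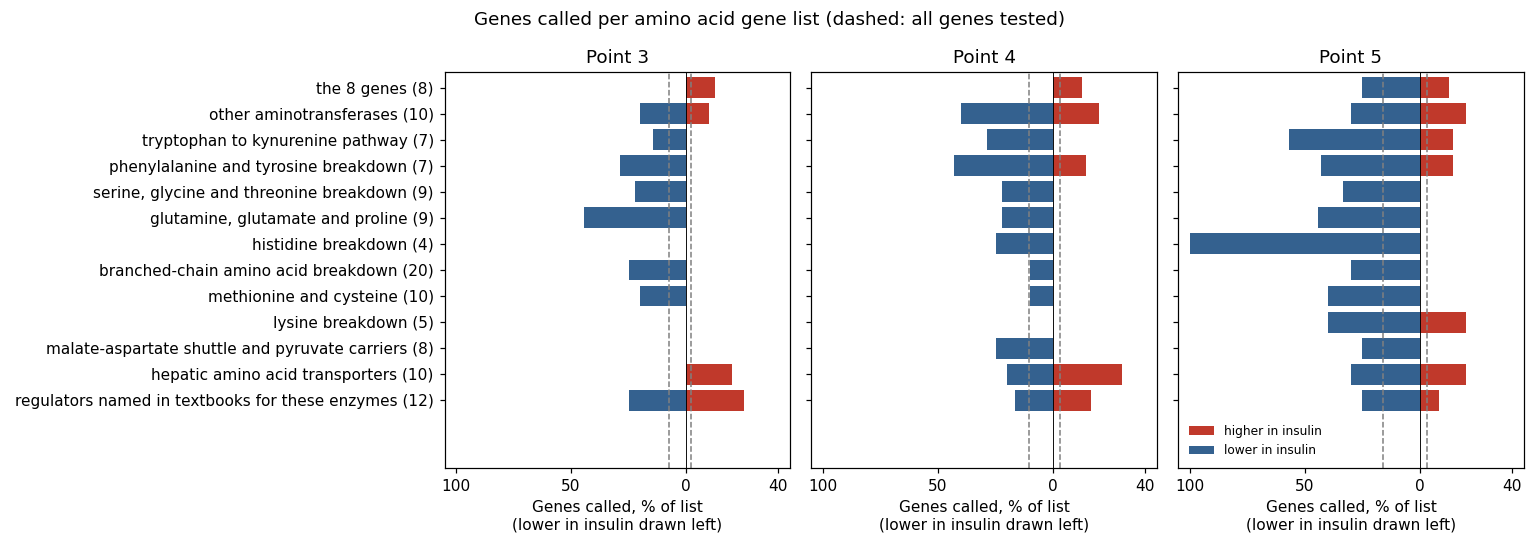
Share of each gene list called higher (red, to the right) or lower (blue, to the left) in insulin at points 3, 4 and 5, with the number of genes tested in brackets. Dashed lines give the share of all genes tested, 16.1% lower and 2.96% higher at point 5. All 4 histidine genes are called lower at point 5, while transporters have genes on both sides.

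Transporters that bring amino acids into the liver cell went both ways. Of 10 tested, point 3 had 2 higher in insulin, point 4 had 3 higher and 2 lower, and point 5 had 2 higher and 3 lower. Slc38a2, a sodium-coupled neutral amino acid transporter, was higher at point 2, with 97.1, 142 and 112 FPKM in insulin and 45.4, 45.2 and 38.5 in PBS (1.41 ± 0.25, adjusted p = 0.00194 by limma). It rose by 1.60 ± 0.25 at point 3 (adjusted p = 0.000253), and its point 5 difference did not pass (0.53 ± 0.25, adjusted p = 0.128).

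Slc16a10, an aromatic amino acid transporter, stood at 60.5 ± 4.3 FPKM (SD, n = 3) in insulin and 27.0 ± 1.2 in PBS at point 5 (1.14 ± 0.11, adjusted p = 3.29e-07 by limma). Slc38a3, the glutamine transporter of hepatocytes, fell, with 264, 254 and 239 FPKM in insulin and 399, 509 and 408 in PBS at point 5 (-0.79 ± 0.15, adjusted p = 0.00135). Its groups did not overlap, in the same direction as Gls2 at that point.

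Of 12 textbook regulators of these enzymes, 3 rose and 3 fell at point 3, against 3 and 1 under either scaling. Ppargc1a, which encodes the coactivator PGC-1alpha, stood at 17.0 ± 3.6 FPKM (SD, n = 3) in insulin and 1.85 ± 0.22 in PBS at point 3 (adjusted p = 1.76e-11 by limma). Atf4, a transcription factor of the amino acid response, was higher at point 2, with 41.2 ± 1.8 against 24.4 ± 2.7 FPKM (adjusted p = 0.0161), a call lost under 4 of 15 alternatives, including those that dropped insulin replicate 1 or 2 of the point (adjusted p = 0.0729 and 0.0625) or PBS replicate 3 (adjusted p = 0.116). Cebpa, a liver transcription factor, fell at point 3 from 107 ± 9 FPKM in PBS to 57.9 ± 13.7 in insulin (adjusted p = 0.00439). Gcgr, the glucagon receptor gene, fell at point 5 from 69.3 ± 2.4 to 43.3 ± 3.2 FPKM (adjusted p = 0.00468). No test linked any of these regulators to a member.

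The genes whose levels followed each member most closely over the 30 libraries, by Pearson's r of log2(FPKM + 1), are given as a description, since the libraries share treatment, point and depth. For Got1 they were Fh1 (fumarate hydratase, r = 0.901), Aass (lysine breakdown, r = 0.833) and Slc25a15 (the mitochondrial ornithine carrier, r = 0.804). For Gpt they were Prodh (r = 0.914), Dcxr (r = 0.896) and Got2 (r = 0.892). Gpt2 was followed by Mt1 (r = 0.895), Osbpl1a (r = 0.881) and Por (r = 0.863), and Sds by Etnk2 (r = 0.819), Pla1a (r = 0.78) and Slc25a5 (r = 0.77).

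Gls2 had Aldh1b1 (r = 0.879), Mthfd1 (r = 0.879) and Fbp1 (fructose-1,6-bisphosphatase, r = 0.85). Hpd had Sorbs3 (r = 0.916), Lhpp (r = 0.883) and the urea cycle gene Ass1 (r = 0.882), and Sdsl had the urea cycle gene Arg1 (r = 0.83), Acat1 (r = 0.822) and Vamp8 (r = 0.814). The nearest genes of Tdo2 were less alike, with Fam162a at r = 0.738, Psmd14 at r = 0.731 and Atp6v1e1 at r = 0.725. Among the members, Gpt2 and Sds had r = 0.819, and Got1 and Gpt had r = -0.185.

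**Figure D5:**
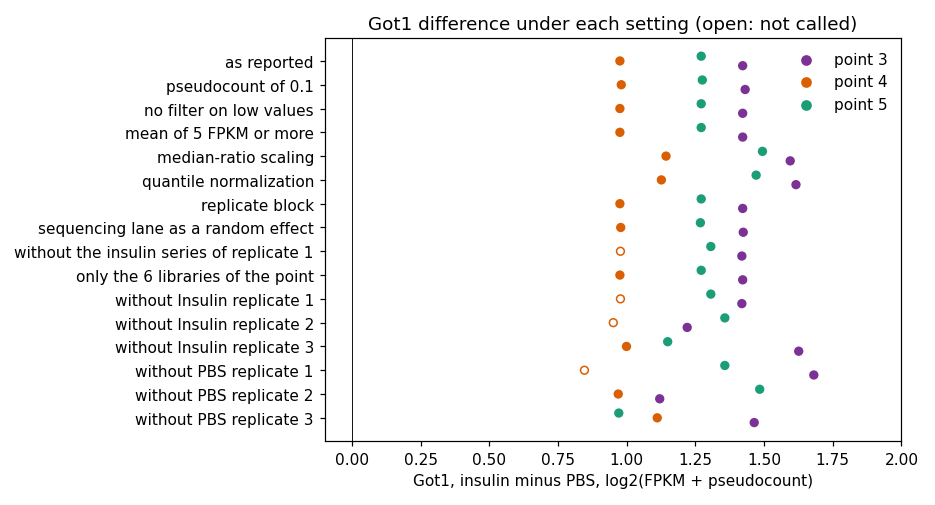
Difference of Got1 between insulin and PBS at points 3, 4 and 5 under each processing setting (rows). Filled circles passed the test and open circles did not. The open circles are all at point 4 and stand at 0.85 to 0.98, and the difference is above 0 in every row.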

How the data were processed

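Poly(A) RNA libraries of mouse liver were made with a directional kit, per the labels' protocols. Reads had been processed with HISAT2 2.1.0, SAMtools 1.9 and StringTie 2.0.3 on GRCm38 (mm10), per the submitters' processing notes. The annotation used and the setting for strand were not given in the sources used here. FPKM is the unit of the deposited table, values that the authors scaled for transcript length and library size, so no count test was run. Cells without a value (32.2%, none of them of the 8 genes) were set to 0 FPKM. Groups came from the sample titles, which give treatment and 2 numbers, of which that with 5 levels was taken for the point since the design text describes triplicates at 5 times. Per the labels, insulin libraries ran on lanes 1 (6) and 2 (9), and PBS libraries on lanes 3 to 5 (5 each).

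The 13589 genes that reached FPKM 1 in 3 or more of the 30 libraries were analysed as log2(FPKM + 1), a pseudocount that understates changes of low genes. The model was limma 3.58.1 (R 4.3.3) with 10 group means and a trend of the spread on the level, leaving 20 residual degrees of freedom. Tests were two-sided, and p-values were adjusted over all genes by the Benjamini-Hochberg method at 0.05. The members and the gene lists were chosen with earlier results of these data known. The genes named were the 8 members, up to 3 called genes per amino acid list and point with the smallest adjusted p, and the 3 genes nearest each member by Pearson's r at a mean of 5 FPKM or more. Hal, and the values of a named gene at points where it was not called, were added after they were seen. In simulated data, each of the 13589 genes had independent normal noise with its own residual spread over all 30 libraries. Changes of 0.5 or 1 on the log2 scale were added to 100 genes each, at a mean of 5 FPKM or more, in insulin at point 3. That is fewer genes than were called in the real data. The fit recovered 34% of changes of 0.5 and 82% of changes of 1, with 3 false calls. Depth was estimated from the steps between low values, of which 38.9% to 47.9% were whole reads within 0.05, so no reads were recovered. Positions came from GENCODE M21, which matched 29066 of 29117 IDs. Alternatives were a pseudocount of 0.1, no filter, quantile normalization, median-ratio scaling, a filter at a mean of 5 FPKM, a replicate block, lane as a random effect, the 6 libraries of a point alone, and libraries left out.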

Additional observations from a re-analysis of the deposited data

Results flagged for a closer look

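The Got1 difference between insulin and PBS was not the same at the 5 points, by a test of the difference itself (F test in limma, adjusted p = 0.0068, with 3 libraries per group). It was -0.54 and 0.13 at points 1 and 2, where the adjusted p was 0.62 and 0.823, and 1.42, 0.98 and 1.27 at points 3, 4 and 5. All 3 insulin libraries lay below all 3 PBS libraries at point 1 and above them at points 3, 4 and 5. The adjusted p of this dependence was 0.00292 to 0.0244 when any single library was left out and 0.0817 without the insulin libraries of replicate 1.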

How the results depend on the processing

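Of 340 recomputed counts of members called, 325 stayed within 1.5 times the reported count. Of 1816 recomputed values of single members, 1736 kept their side of the threshold, 68 lost the call, 11 gained it and 1 reversed. A reversal was a change of sign in a value called in either fit. Changes of sign in values called in neither fit were not counted. Got1 at point 2, for example, ran from -0.033 to 0.269 with single libraries left out. The reversal was Tdo2 averaged over the points, at 0.16 under median-ratio scaling (adjusted p = 0.0207 by limma) against -0.00 as reported. In the average over the points, median-ratio scaling called 2 members higher and 3 lower, quantile normalization 3 lower, and the fit without the insulin libraries of replicate 1 also 3 lower, against 1 and 6 as reported. The lower count was 4 to 6 when single libraries were left out. That of members higher at point 4 was 0 to 1, that of members lower at point 4 was 0 to 1, and that of members varying within PBS was 1 to 4, with 1 without PBS replicate 2 of point 5 and 1 without a filter on low values. Without the insulin libraries of replicate 1, the counts of members higher at point 4 and of members whose difference depended on the point were both 0. With the 6 libraries of the point alone, 1 member was lower at point 3 and 1 at point 5.

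The replicate numbers showed no pairing of insulin with PBS libraries of the same point. There the deviations of same-numbered libraries from their group means correlated at -0.11 to 0.12 over 15 pairs, with 1 above 0.1. Whether a replicate number links the points within a treatment was not tested. PBS replicates 1, 2 and 3 ran on lanes 3, 4 and 5, so replicate and lane cannot be told apart within PBS. All insulin libraries of replicate 2 ran on lane 1. With the replicate block 1 member, Gpt, was lower at point 3 (adjusted p = 0.0436), against 0 as reported, and no other count of members moved by over 1.5 times. The block moved the calls over all genes at point 3 from 1284 to 1957. Without the filter 810 genes were called there, and with the 6 libraries of point 4 alone 101 of 1799. In the simulated data, changes of 0.5 on the log2 scale were often missed at this number of libraries.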
